A study of Schizosaccharomyces pombe
Saccharomyces cerevisiae with 24 samples.

Results

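The RNAs described here are stable noncoding RNAs of the budding yeast Saccharomyces cerevisiae, chosen by name and not by any measured value. Earlier results of these data were known when the RNAs and the tests were chosen. The 8 names were SCR1, RPR1, NME1, TLC1, LSR1, snR6, snR14 and snR19. Of these, 7 had a row among the 7127 genes counted, and TLC1, the RNA of telomerase, was not analysed here. All 7 passed the filter for low counts (in at least 50% of the 24 libraries, any count above 0), as did 6069 genes in all.

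RNA came from diploid W303 yeast that was grown in raffinose and given galactose. After 60 or 20 min in galactose, 4-thiouracil (4sU) was added for a pulse of 6 min or left out, and the cells were collected. 4sU is a uracil analog that cells build into the RNA they make during the pulse. The labeled fraction is the RNA that was biotinylated on its thiol group and bound to streptavidin beads, the unlabeled fraction is the flow-through of those beads, and total RNA was not separated. The 3 fractions, with and without 4sU, at 60 and 20 min, gave 12 conditions with 2 biological replicates each. The libraries without 4sU are the negative control of the pull-down, since their cells had no thiol label to capture. Each replicate was 1 culture that was divided between the times and between the aliquots with and without 4sU.

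SCR1 is the RNA of the signal recognition particle, which brings ribosomes making secreted and membrane proteins to the endoplasmic reticulum. RPR1 is the RNA of RNase P, which cuts the 5′ leader from precursor tRNAs, and NME1 is the RNA of the related RNase MRP, which acts in ribosomal RNA processing. LSR1 (U2), snR19 (U1), snR14 (U4) and snR6 (U6) are spliceosomal snRNAs, the RNA cores of the particles that recognise introns and remove them. U1 binds the 5′ splice site, U2 binds the branch point, and U4 is paired with U6 until the spliceosome is activated. SCR1, RPR1 and snR6 are made by RNA polymerase III, and LSR1, snR19 and snR14 by RNA polymerase II. RNAs of this kind are known for being held in protein complexes and for slow turnover compared with most mRNAs.

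Labeled libraries held 6600472 to 38373886 raw counts with 4sU and 1073888 to 4751222 without it. The totals ran from 2910909 to 10320711 in unlabeled RNA and from 4380685 to 25744071 in total RNA. Labeled S. pombe cells had been mixed with the samples before RNA was isolated, and a normalized count is a raw count divided by the library's S. pombe reads over 2000000. Within a fraction this gives amounts per spike-in cell, and on that scale fewer cells and less RNA per cell cannot be told apart. Between fractions it cannot be used in this way, because the pull-down also enriches S. pombe RNA. Fractions were therefore compared in CPM, a gene's counts scaled to the same total in every library, or with TMM scaling, which sets the typical gene to no change. A gene can have different signs on these scales, and the scale is named with each result. Counts were not divided by transcript length, so levels are compared within a gene and not between genes. The libraries without 4sU at 20 min, replicate 1, stood apart in labeled and in unlabeled RNA. The labeled one had a normalized total of 3.26 M counts, and no other labeled library without 4sU exceeded 0.329 M. In the unlabeled one the members summed to 249017 CPM, against 91386 to 160881 CPM in the other 3 unlabeled libraries without 4sU.

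snR6 was close to the limit of what was counted. It had 39 counts among 175315791 over all libraries, with 0 to 11 counts in a library and 0 in 7 of them. In labeled RNA with 4sU it had 3 and 1 counts at 60 min and 11 and 0 counts at 20 min, and in total RNA with 4sU it had 3 and 2 counts at 60 min and 1 and 1 at 20 min. A count of 0 allows a true level of up to 3 counts from counting error alone, so nothing is read from the tests of U6 at this depth and no fold change of it is given. The other 6 members had at least 46 counts in every library, and SCR1 had up to 1891822. Together the members took 10406 to 20040.2 CPM in labeled RNA with 4sU, against 84248 to 121198 CPM in total RNA with 4sU.

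The first comparison asked how much of each RNA the pull-down captured relative to what was present. With 4sU, SCR1, RPR1, NME1, LSR1 and snR19 were strongly depleted from labeled RNA, by 14.5 to 27.0 times relative to the typical gene. snR14 (U4) was depleted by far less, 2.69 times. With TMM scaling, 6 of 7 members were lower in labeled than in total RNA (edgeR quasi-likelihood test, Benjamini-Hochberg adjusted p under 0.05), where 27.7% of all tested genes were lower and 33.0% were higher. The median over the 6 members without snR6 was -4.39 on the log2 scale, against 0.05 over all tested genes.

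SCR1 had 11951 and 4839 CPM at 60 min and 5059 and 6009 CPM at 20 min in labeled RNA with 4sU, against 60263, 57949, 64728 and 41980.4 CPM in total RNA of the same aliquots. Every labeled value was below every total value. Its log2 difference, labeled over total, was -4.47 (SE 0.38, edgeR adjusted p = 6.87e-07), and 0.247% of all tested genes were at or below it.

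RPR1 had 2221 and 1252 CPM at 60 min and 1162 and 1459 CPM at 20 min in labeled RNA, against 7541, 7819, 9987 and 7257 CPM in total RNA. Again the fractions did not overlap, and the log2 difference was -3.86 (SE 0.26, edgeR adjusted p = 1.11e-07), the smallest among the 5 strongly depleted RNAs. NME1 had 330.3 and 232 CPM at 60 min and 105 and 155 CPM at 20 min in labeled RNA, against 1385, 1623, 1666 and 1467 CPM in total RNA. Both labeled NME1 values at 60 min were above both at 20 min, which total RNA did not show. The log2 difference of NME1 was -4.43 (SE 0.21, edgeR adjusted p = 1.05e-08).

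LSR1, the U2 RNA, had 4723 and 3465 CPM at 60 min and 3779 and 4549 CPM at 20 min in labeled RNA, against 32012, 26184, 38467 and 28775 CPM in total RNA. Its log2 difference was -4.35 (SE 0.24, edgeR adjusted p = 3.51e-08). snR19, the U1 RNA, had 696 and 564 CPM at 60 min and 447 and 513 CPM at 20 min in labeled RNA, against 5813, 5289, 6273 and 4698 CPM in total RNA. At -4.76 (SE 0.20, edgeR adjusted p = 4.07e-09) U1 had the lowest log2 difference of the 6 RNAs, with 0.115% of all tested genes at or below it. The 95% intervals of these 5 RNAs overlapped for every pair, which is no test of a difference between them. Differences among the 5 were not tested, so they are not ranked among themselves.

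snR14, the U4 RNA, did not follow them. It had 117 and 53.1 CPM at 60 min and 56.7 and 95.3 CPM at 20 min in labeled RNA with 4sU, against 80.7, 93.5, 78.3 and 71.3 CPM in total RNA. The fractions overlapped, and U4 thus held about the same share of the counts in both. With TMM scaling its log2 difference was -1.43 (SE 0.27, 95% interval -2.01 to -0.85, edgeR adjusted p = 4.24e-04). On the scale of the S. pombe totals, which does not compare amounts between fractions, it was 1.58 and the median gene was at 3.14. The other 5 RNAs were between -1.70 and -0.83 on that scale. A change of scale moves all genes by nearly the same amount, so the order of snR14 and the others adds nothing there. Among all tested genes, 4.58% were at or below snR14.

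**Figure D1:**
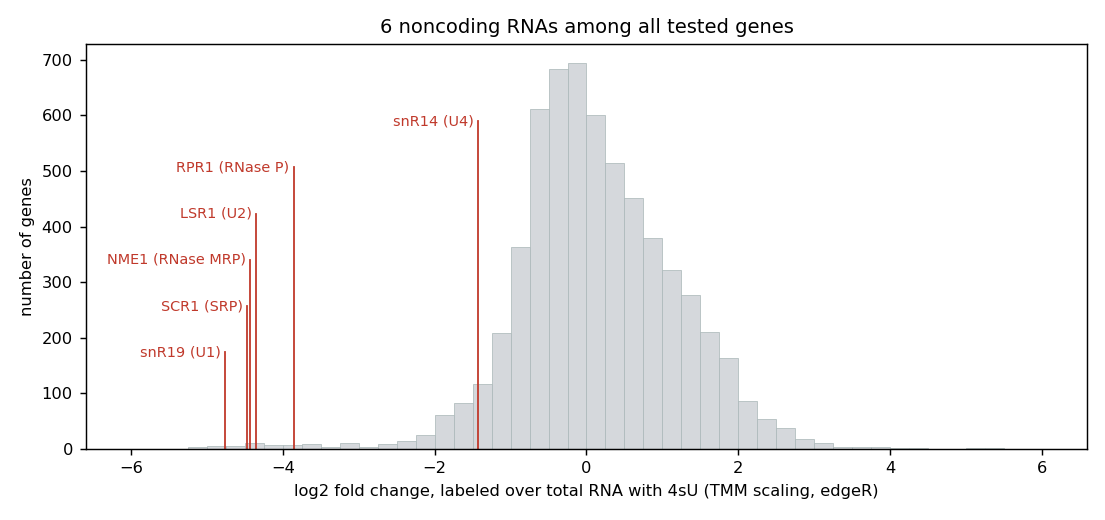
Number of genes (vertical axis) by log2 fold change of labeled over total RNA with 4sU (horizontal axis, TMM scaling), in bins over all 6069 tested genes, with red lines at 6 noncoding RNAs whose heights have no meaning. The lines of 5 RNAs lie between -4.76 and -3.86, in the far left tail, and snR14 lies at -1.43 (1.58 with S. pombe totals as library sizes).

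The gap between U4 and the others was present in each aliquot. On the log2(CPM + 1) scale, the labeled over total ratio of snR14 was higher than that of SCR1 by 3.02 ± 0.23 (SD, n = 4 aliquots) and than that of RPR1 by 2.38 ± 0.40. It was higher than that of NME1 by 2.94 ± 0.78, than that of LSR1 by 2.84 ± 0.51 and than that of snR19 by 3.24 ± 0.56. The sign was positive in 4 of 4 aliquots for each of the 5 pairs. The exact two-sided sign-flip test gave p = 0.125 for each, also after adjustment over the 5 pairs, the smallest that 4 aliquots allow. It treats the aliquots as independent, although they came from 2 cultures, so this p is too small and the gap is given as a description. snR14 had the lowest counts of the 6 RNAs, 473 to 2176 in labeled and 341 to 2077 in total RNA with 4sU, and whether its low level had a part in the difference was not tested.

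The same comparison without 4sU is the background of the pull-down. Of the 7 members, 3 were lower in labeled than in total RNA, where 10.1% of all tested genes were lower and 20.1% were higher (TMM scaling, edgeR). They were NME1 at -2.46 (SE 0.40, edgeR adjusted p = 0.00318), snR19 at -1.89 (SE 0.47, edgeR adjusted p = 0.0124) and RPR1 at -1.80 (SE 0.61, edgeR adjusted p = 0.0432) on the log2 scale. snR14 was at -1.02, LSR1 at -0.79 and SCR1 at -0.78, none past the threshold. With the replicate as a block snR14 was lower as well, at -1.16 (edgeR adjusted p = 0.0322).

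SCR1 made up 78249, 17559.6, 59093 and 33119 CPM of the labeled libraries without 4sU (60 min first, replicate 1 before 2), against 69433, 45704, 81574 and 73677 CPM in total RNA without 4sU. LSR1 made up 20830.4, 12798, 47730.0 and 18613 CPM, against 34631, 30084, 40769.9 and 31343 CPM in total RNA. The SRP RNA therefore overlapped between what the beads held back without label and total RNA. For the U2 RNA the overlap rested on 1 library, the labeled one at 47730.0 CPM. The other labeled values of the U2 RNA were all below every total value. NME1, at 438, 359, 406 and 513 CPM, stayed below every total value, which were 1667, 1617, 1592 and 2061 CPM.

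U4 minus the other RNAs, taken per aliquot without 4sU, was 0.05 ± 0.64 against SCR1 and -0.04 ± 0.14 against LSR1 (log2, SD, n = 4), with 2 of 4 aliquots positive for each. It was 1.13 ± 0.26 against RPR1, 1.36 ± 0.63 against NME1 and 0.85 ± 0.59 against snR19, with 4 of 4 positive. Whether the gap with 4sU differed from the gap without was not tested.

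Labeled RNA without 4sU at 20 min, replicate 1, moved these values. Without that library LSR1 was at -1.80, snR14 at -1.65 and RPR1 at -2.98. Without the labeled library at 60 min, replicate 2, NME1 was the 1 member lower. RPR1 lost its call in 5 of the 8 fits that left out a library. On the S. pombe scale 6 members were lower, but so were 4787 of all 6069 tested genes. That count is therefore not read as a result about the members.

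**Figure D2:**
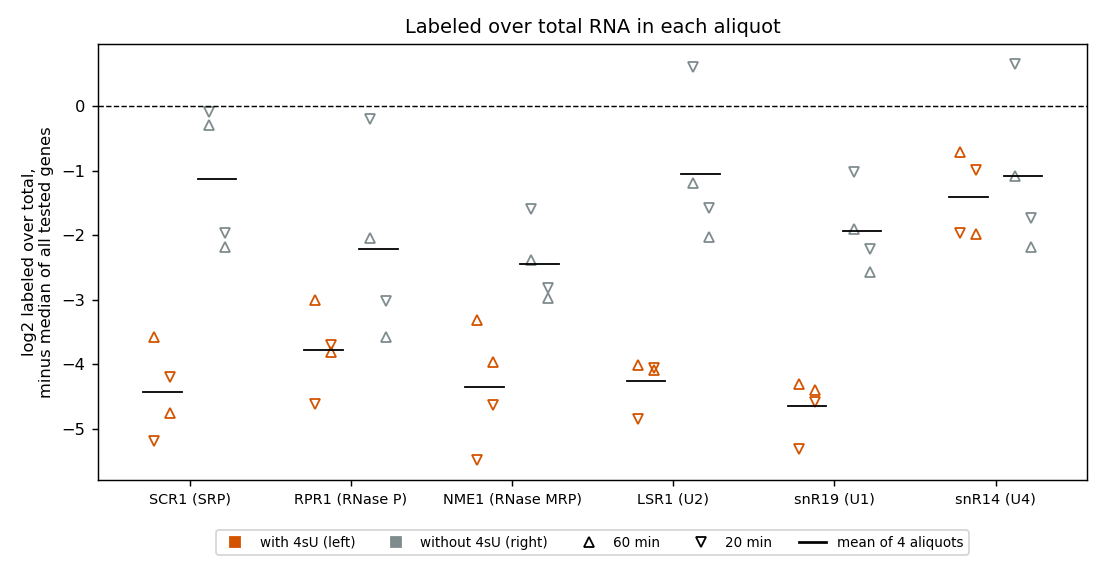
Log2 of labeled over total RNA (CPM + 1) in each aliquot, minus the median of all tested genes in it (vertical axis), for 6 noncoding RNAs with 4sU (orange, left) and without (grey, right). With 4sU, snR14 lay between -1.98 and -0.71 and the others between -5.49 and -3.01, and without 4sU the RNAs overlapped.

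The next comparison set labeled RNA with 4sU against labeled RNA without it, the signal of the pull-down over its background. On the S. pombe scale 98.8% of all tested genes were higher with 4sU, with a median log2 of 5.51. Of the 7 members, 3 were higher: snR14 at 4.24, NME1 at 2.99 and snR19 at 2.20. With TMM scaling the values of the 6 RNAs were negative, from -4.10 for SCR1 to -0.96 for snR14, and 4 of them passed the test.

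snR14 had normalized counts of 1029.8 and 658 at 60 min and 873 and 1209 at 20 min with 4sU, against 20.8, 9.56, 299.8 and 18.1 without. The groups did not overlap, and the log2 difference of U4 had an SE of 1.00 (edgeR adjusted p = 0.00143). NME1 had 2897, 2879, 1617 and 1963 with 4sU, against 144, 80.1, 1325 and 138 without (SE 0.94, edgeR adjusted p = 0.00865), also without overlap. snR19 had 6107, 7000.4, 6884 and 6509.9 with 4sU, against 803, 344, 6698 and 586 without (SE 0.84, edgeR adjusted p = 0.0245), and the third of its background values, at 20 min in replicate 1, lay among the values with 4sU.

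RPR1 had 19482, 15530.3, 17889 and 18522 with 4sU, against 994, 257, 22165 and 544 without, a log2 difference of 2.74 (SE 1.28) that missed the threshold (edgeR adjusted p = 0.0564). LSR1 had 41427, 42972, 58206 and 57735 with 4sU, against 6846, 2858, 155564 and 5001 without, at 1.32 (SE 1.12, edgeR adjusted p = 0.263). SCR1 had 104816, 60003, 77919 and 76258 with 4sU, against 25716, 3921, 192598 and 8899 without, at 1.04 (SE 1.04, edgeR adjusted p = 0.336). For the SRP, RNase P and U2 RNAs, the library without 4sU at 20 min, replicate 1, exceeded every library with 4sU.

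In the other 3 aliquots the background was lower and differed between members. There the normalized count without 4sU was 6.53% to 24.5% of that with 4sU for SCR1, 6.65% to 16.5% for LSR1 and 4.92% to 13.1% for snR19. It was 2.78% to 7.02% for NME1, 1.66% to 5.10% for RPR1 and 1.45% to 2.02% for snR14. U4 therefore had the lowest background of the 6 RNAs in these aliquots, and its fold over background was 49.4 to 68.8. The median gene was at 39.5 to 69.8, but by another measure, with 1 added to each normalized count. This lowers folds at low counts, and the median normalized count without 4sU was 8.53 to 10.3 in these libraries. The 2 ranges are therefore not compared, and the same measure of the median gene is used below. In the aliquot at 20 min, replicate 1, the count without 4sU was 247% of that with 4sU for SCR1, 267% for LSR1, 124% for RPR1, 97.3% for snR19, 81.9% for NME1 and 34.3% for snR14, and the median gene was 22.1 times higher with 4sU.

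Without that library the 6 RNAs with values were all higher with 4sU on the S. pombe scale (edgeR), where 6064 of all 6069 tested genes were. The test also called snR6, on too few counts to be read. The log2 differences were then 5.82 for snR14, 4.91 for RPR1, 4.28 for NME1, 3.51 for snR19, 3.28 for LSR1 and 2.72 for SCR1, with a median of 6.16 over all tested genes. Leaving out the labeled library without 4sU at 60 min, replicate 2, lowered them instead, to 3.61 for snR14, 2.30 for NME1, 1.79 for RPR1, 1.64 for snR19, 0.55 for LSR1 and 0.35 for SCR1. With the replicate as a block 6018 of all 6069 tested genes were higher. So were 5 members, RPR1 at 3.72 (edgeR adjusted p = 0.00470) and SCR1 at 1.99 (edgeR adjusted p = 0.0399) being added. The count fell to 2 where leaving out a labeled library at 60 min (without 4sU replicate 1, with 4sU replicate 1, or without 4sU replicate 2) took the call of snR19.

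Relative to the typical gene (TMM scaling), 4 of 7 members were lower with 4sU, where 3.25% of all tested genes were lower and 1.42% were higher. SCR1 was at -4.10 (SE 0.89, edgeR adjusted p = 0.0367), LSR1 at -3.86, snR19 at -3.09 and NME1 at -2.31 on the log2 scale. RPR1 at -2.39 and snR14 at -0.96 did not pass, and with the replicate as a block NME1, at -2.22, did not either (edgeR adjusted p = 0.0573). These calls were fragile: 0 members passed without the labeled library with 4sU at 20 min replicate 1 or replicate 2, with 4sU at 60 min replicate 2, or without 4sU at 60 min replicate 1. Leaving out the labeled library with 4sU at 60 min replicate 1, or that without 4sU at 60 min replicate 2, left 2 members, and 5 passed without the library without 4sU at 20 min, replicate 1.

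**Figure D3:**
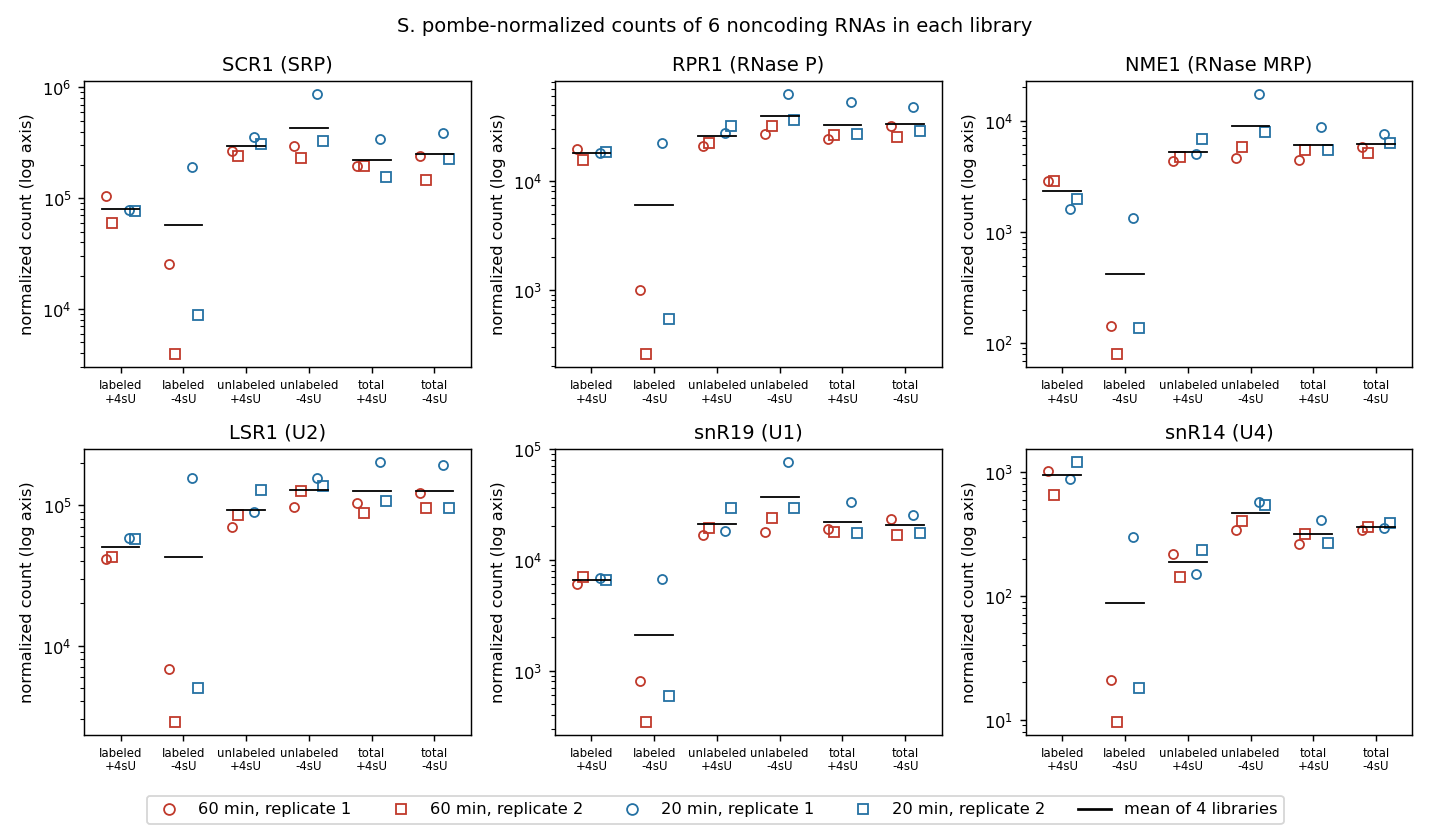
Normalized count (vertical log axis, S. pombe scale) of 6 noncoding RNAs in each of the 24 libraries, by fraction and 4sU, with red for 60 min, blue for 20 min, circles and squares for replicates and a line at the mean of 4 libraries. In labeled RNA without 4sU the blue circle, replicate 1 at 20 min, lies above the other 3 libraries for all 6 RNAs, as for SCR1 at 192598 against 3921 to 25716.

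Unlabeled RNA, the flow-through of the beads, was compared with against without 4sU. Whether removal of labeled RNA or a change of recovery set the differences was not tested. On the S. pombe scale 85.1% of all tested genes were lower with than without 4sU, with a median log2 of -2.62. Of the 7 members 1 was lower, snR14 at -1.28 (SE 0.49, edgeR adjusted p = 0.0111). The other 5 RNAs with values were between -0.68 and -0.45 and did not pass. With TMM scaling all 6 were positive, from 1.10 for snR14 to 1.89 for LSR1, so each lost less than the typical gene. All 6 passed on that scale, where 1524 of all 6069 tested genes were higher and 1887 were lower.

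snR14 had normalized counts of 219, 142, 151 and 236 in unlabeled RNA with 4sU, against 340.3, 399, 576 and 543 without, and the groups did not overlap. snR19 had 16731, 19227, 18330.4 and 29468 with 4sU, against 17921, 23871, 76476 and 29081 without, at -0.68 (SE 0.35, edgeR adjusted p = 0.0583). SCR1 had 266448, 238229, 359093 and 310559 with 4sU, against 297598, 231134, 871696 and 325313 without, at -0.45 (SE 0.28). For both, 1 library without 4sU, at 20 min in replicate 1, lay far above the rest, and without it the log2 difference was -0.24 for snR19, -0.02 for SCR1, -0.28 for NME1, -0.39 for RPR1 and -0.46 for LSR1, while snR14 was still lower at -1.22 (edgeR adjusted p = 0.0220).

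RPR1 was at -0.59, NME1 at -0.64 and LSR1 at -0.48. With the replicate as a block, 5 members were lower on the S. pombe scale, but so were 5495 of all 6069 tested genes. The members were snR14 (-1.28), snR19 (-0.67), NME1 (-0.63), RPR1 (-0.59) and LSR1 (-0.49), with edgeR adjusted p from 9.01e-05 to 0.0250. snR14 lost its call without the unlabeled library with 4sU at 20 min replicate 1 (edgeR adjusted p = 0.0677) or at 60 min replicate 2 (edgeR adjusted p = 0.0566). Without the library without 4sU at 20 min, replicate 2, 3 members were lower, snR14, snR19 and SCR1. Without that at 60 min, replicate 1, snR19 was added to snR14. In these fits 4759 and 5056 of all 6069 tested genes were lower.

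In total RNA no difference of the members between aliquots with and without 4sU passed the test. Of 7 members 0 were called (0 at an unadjusted p under 0.05, and 0 by DESeq2), where edgeR called 4.7% of all tested genes, and with the replicate as a block 456 in place of 285 genes. Log2 differences were -0.21 (95% interval -0.72 to 0.29) for snR14, -0.14 (-0.67 to 0.38) for SCR1, -0.05 (-0.58 to 0.47) for RPR1 and -0.05 (-0.57 to 0.47) for NME1. They were -0.04 (-0.56 to 0.49) for LSR1 and 0.05 (-0.47 to 0.57) for snR19, with a median of 0.22 over all tested genes.

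snR14 had 261, 315, 414 and 266 normalized counts in total RNA with 4sU, against 342, 362, 356 and 389 without. SCR1 had 194839.8, 195226, 341860.3 and 156660.4 with 4sU, against 242854, 146004, 385628 and 224269.8 without. Replicate 1 at 20 min held the highest SCR1 value in both groups, which otherwise overlapped. The 95% intervals of the 6 RNAs, as folds, reached down to 0.607 and up to 1.49.

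**Figure D4:**
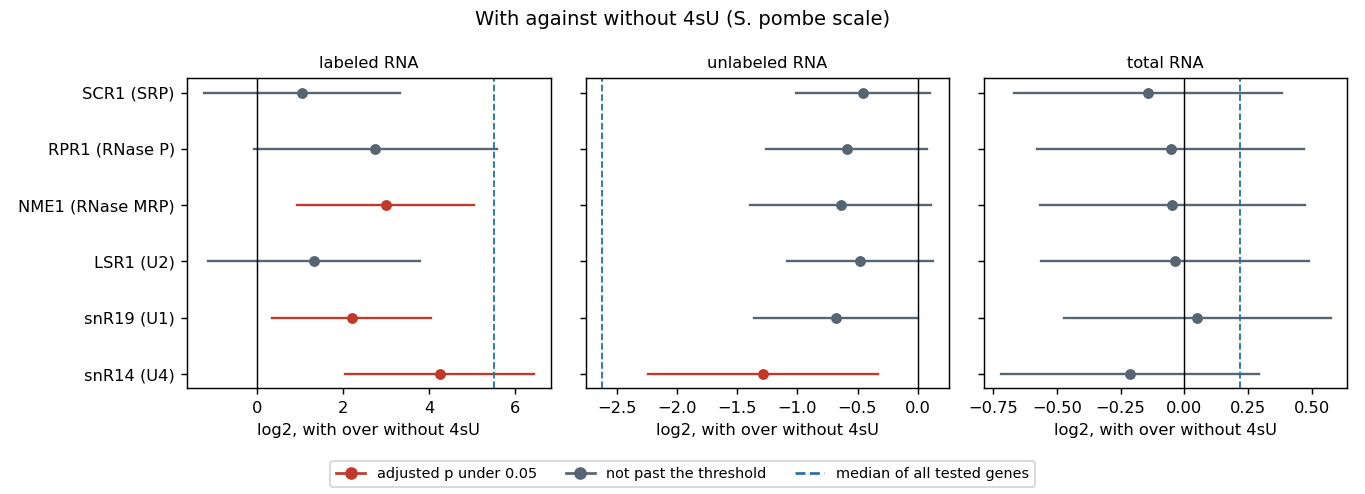
Log2 difference with over without 4sU (horizontal axes, S. pombe scale, each with its own range) of 6 noncoding RNAs in labeled, unlabeled and total RNA, as points with 95% intervals, red where the edgeR adjusted p was under 0.05, and a dashed line at the median of all tested genes. Each point in labeled RNA is left of the median of 5.51 and each point in unlabeled RNA is right of the median of -2.62, and with TMM scaling the signs in both fractions turn round.

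Time in galactose was compared next, since the labels give 60 and 20 min for each fraction. With S. pombe totals no member passed the test in any fraction. In labeled RNA with 4sU 0 of 7 members were called (0 at an unadjusted p under 0.05, and 0 by DESeq2), where edgeR called 1.35% of all tested genes. NME1 was at 0.69 (95% interval -0.18 to 1.56), with normalized counts of 2897 and 2879 at 60 min and 1617 and 1963 at 20 min. LSR1 was at -0.46 (-1.31 to 0.39), with 41427 and 42972 at 60 min and 58206 and 57735 at 20 min. For the other 4 RNAs the log2 differences were 0.10 for SCR1, -0.03 for snR19, -0.06 for RPR1 and -0.30 for snR14.

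The median over all tested genes was -0.43 in that comparison. With TMM scaling NME1 passed the test at 1.16 (edgeR adjusted p = 0.0207), and RPR1, LSR1, snR14 and snR19 turned positive without passing. The difference between the time effects in labeled and total RNA was tested in a model of its own (TMM scaling), which called 0 members (1 at an unadjusted p under 0.05, and 1 by DESeq2) and 0.0494% of all tested genes. The 1 was NME1 in both cases, at 1.44 with edgeR (SE 0.36, adjusted p = 0.343) and 1.40 with DESeq2 (adjusted p = 0.0311). With the replicate as a block edgeR called 8 in place of 3 genes, and NME1 at 1.40 was not among them (adjusted p = 0.171).

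In total RNA with 4sU the log2 differences of 60 over 20 min were between -0.70 for LSR1 and -0.24 for snR14, with 0 of 7 called (0 at an unadjusted p under 0.05, and 0 by DESeq2) where edgeR called 1.22% of all tested genes. LSR1 had 103501 and 88211 normalized counts at 60 min, against 203161 and 107380.0 at 20 min. The 20 min library of replicate 1 was the highest for all 6 RNAs. In unlabeled RNA with 4sU they were between -0.49 for LSR1 and -0.10 for snR14, again with 0 called (0 at an unadjusted p under 0.05, and 0 by DESeq2), where edgeR called 30.5% of all tested genes and the median gene was at -1.16.

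In total RNA without 4sU edgeR called 0 members (0 at an unadjusted p under 0.05, and 0 by DESeq2) and 0.0824% of all tested genes, with log2 differences between -0.65 for SCR1 and -0.08 for snR14. The test of whether the effect of time in total RNA differed with and without 4sU called 0 members (0 at an unadjusted p under 0.05, and 0 by DESeq2) and 0.198% of all tested genes.

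**Figure D5:**
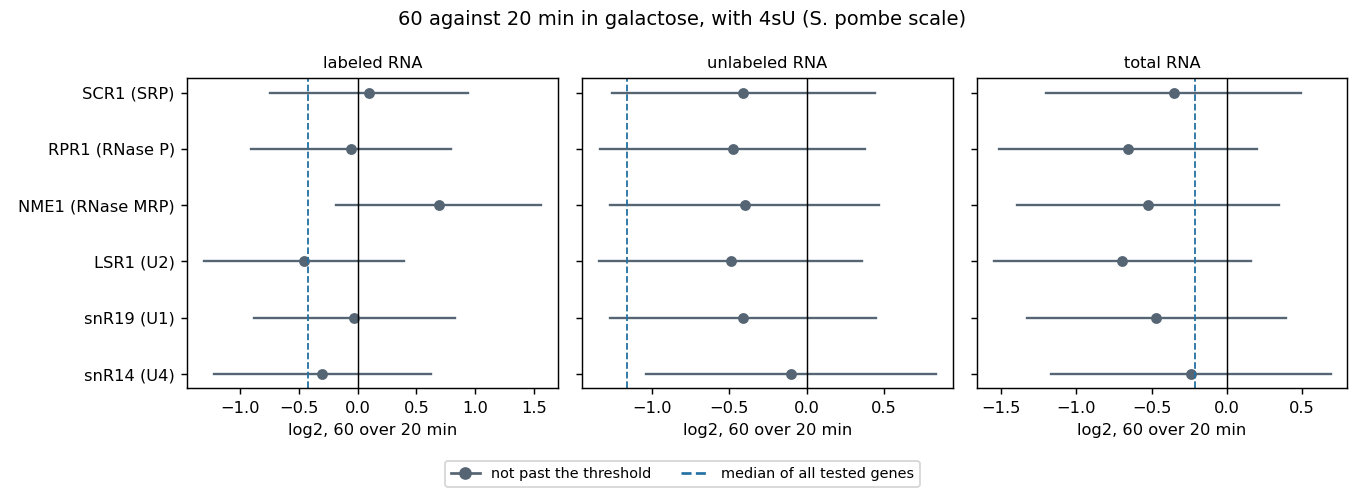
Log2 difference of 60 over 20 min with 4sU (horizontal axes, S. pombe scale, each with its own range) of 6 noncoding RNAs in labeled, unlabeled and total RNA, as points with 95% intervals, and a dashed line at the median of all tested genes. Every interval includes 0, and NME1 in labeled RNA, at 0.69 (1.16 with TMM scaling), lies farthest above the median of -0.43 in that fraction.

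Across all conditions, SCR1, RPR1, NME1 and snR19 had the same order of mean CPM: unlabeled RNA was highest, then total RNA, then labeled RNA, with the lowest mean in labeled RNA with 4sU. In unlabeled RNA without 4sU, the library at 20 min, replicate 1, raised the means of RPR1 and NME1, at 13173 and 3651 CPM. The medians without 4sU had unlabeled below total RNA for both. They were 8532 against 9229 CPM for RPR1 and 1635 against 1642 CPM for NME1. For SCR1 the means were 125063 ± 38174 CPM with and 101910 ± 59380 CPM without 4sU in unlabeled RNA (SD, n = 4 libraries each). They were 56229.9 ± 9908 CPM with and 67597 ± 15438 CPM without 4sU in total RNA, and 6964 ± 3363 CPM with and 47005 ± 26970 CPM without in labeled RNA. Groups of unlabeled and total RNA that were neighbours in this order overlapped for all 4 RNAs. Labeled RNA without 4sU overlapped total RNA for SCR1 only, and labeled RNA with and without 4sU did not overlap for SCR1, NME1 and snR19 but did for RPR1.

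For snR19 the means were 8520.2 ± 955 and 8424 ± 5132 CPM in unlabeled RNA with and without 4sU, and 555 ± 106 and 2055 ± 379 CPM in labeled RNA with and without 4sU. LSR1 differed in its means: unlabeled RNA without 4sU, at 30864 ± 3814 CPM, came below total RNA. Total RNA of LSR1 was at 31359 ± 5304 CPM with and 34207 ± 4777 CPM without 4sU. Its labeled RNA with 4sU, at 4129 ± 604 CPM, was below every library of the other groups. snR14 had a narrow range of means, 80.6 ± 31.1 and 66.4 ± 20.2 CPM in labeled RNA with and without 4sU, 80.1 ± 33.5 and 111 ± 16.5 CPM in unlabeled RNA and 80.9 ± 9.24 and 104 ± 22.5 CPM in total RNA. No neighbours in its order were separated beyond their spread.

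The levels of SCR1, RPR1, NME1, LSR1 and snR19 moved together over the 24 libraries, with Pearson's r of log2(CPM + 1) between 0.851 and 0.977 for their pairs. snR14 had an r of 0.297 to 0.516 with them. These are descriptions, since the libraries share cultures and their fractions set most of the spread. Among the 5066 genes compared, the 2 most like SCR1 were snR30 (r = 0.971) and snR17a (r = 0.968), and for LSR1 they were snR17a (r = 0.975) and Q0158 (r = 0.974). For RPR1 they were snR43 (r = 0.971) and snR42 (r = 0.969), for NME1 snR11 (r = 0.982) and snR19 (r = 0.977), and for snR19 NME1 and snR42 (both r = 0.977). The genes most like snR14 were snR52 (r = 0.674) and snR49 (r = 0.669), a looser match than any other member had.

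Other small noncoding RNAs give the background for these values. Of 65 genes with snoRNA-type names that passed the filter, 47 were lower in labeled than in total RNA with 4sU (TMM scaling, edgeR), with a median log2 of -2.31. Of 72 with tRNA-type names, 15 were lower and 1 was higher, with a median of -0.95. In unlabeled RNA, with against without 4sU on the S. pombe scale, 19 of the 65 snoRNA-type and 32 of the 72 tRNA-type genes were lower. Their medians were -0.56 and -1.79, against -0.62 over the 6 members without snR6.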

How the data were processed

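Diploid yeast RNA was sequenced as labeled, unlabeled and total fractions, with and without 4sU, at 60 and 20 min in galactose, in 2 replicates of 12 conditions. The authors aligned paired-end reads with HISAT2 2.0.4 and deposited raw counts per gene from featureCounts, with strand taken into account and multi-mapping reads counted, so RNAs with near-identical copies can share reads. They also deposited a signal table in which each count is divided by the library's reads mapped to S. pombe over 2000000. Ribosomal RNA had been depleted before sequencing, and eluted and flow-through RNA had been purified over columns, steps that can change the recovery of small RNAs. Their effect was not tested.

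The 8 RNAs, the lists and the tests were chosen with earlier results of these data known. The named genes are the 8 RNAs in all 24 libraries, a list of related small RNAs, classes by type of gene name, and the 2 genes with the highest Pearson's r of log2(CPM + 1) among genes with a mean count of at least 50, for each of the 6 RNAs that reached that count. The proteins that bind these RNAs, and TLC1, were not analysed here. Sequences and transcript lengths were not used here.

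Counts were tested with edgeR 4.0.16 in R 4.3.3 (quasi-likelihood, two-sided, Benjamini-Hochberg over 6069 genes, threshold 0.05). Library sizes were S. pombe totals for comparisons within a fraction and TMM-scaled totals for comparisons between fractions. Effects of 4sU were fitted within the 8 libraries of a fraction, adjusting for time, and the others on groups of fraction and time. Unlabeled libraries thus enter the spread of the labeled over total fits. Summaries used Python 3.11.15. Alternatives were the other scale, DESeq2 1.42.0, other filters, the replicate as a block, and each library left out.

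Replicate numbers pair the libraries, because the growth protocol divides 1 culture between the times and between the aliquots with and without 4sU. Deviations of same-numbered libraries from their group means correlated weakly, with a median r of 0.171 (0.036 to 0.318) within an aliquot, 0.219 (-0.043 to 0.384) between times and 0.196 (-0.247 to 0.316) with against without 4sU. At these depths the 2 replicates limit the precision for the 6 RNAs other than snR6, of which snR14 had as few as 46 counts in a library. Counting error limits it for snR6.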

Additional observations from a re-analysis of the deposited data

How the results depend on the processing

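With 2 replicates per condition and no transcript lengths, these results rest on few libraries and on the choice of scale. Labeled over total RNA with 4sU kept 6 members called in all 8 fits that left out a library, with the replicate block (6) and with a replicate block of the aliquot (6). The replicate block called 5 members among 6018 genes for 4sU in labeled RNA, and 5 among 5495 genes for 4sU in unlabeled RNA. It called 456 genes for 4sU in total RNA and 8 for time, labeled minus total. Apart from these counts and the member calls given beside their results, it changed no other call of a member.

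TMM scaling in place of S. pombe totals reversed the sign for 4sU in labeled RNA of SCR1 (-4.10), RPR1 (-2.39), NME1 (-2.31), LSR1 (-3.86), snR14 (-0.96) and snR19 (-3.09). It reversed 4sU in unlabeled RNA of SCR1 (1.88), RPR1 (1.78), NME1 (1.70), LSR1 (1.89), snR14 (1.10) and snR19 (1.64), where 6 members were then called. It reversed 60 over 20 min in labeled RNA of RPR1 (0.46), LSR1 (0.025), snR14 (0.22) and snR19 (0.44), where 1 member was then called. S. pombe totals in place of TMM reversed snR14 in labeled over total RNA with 4sU (1.58) and in time, labeled minus total (-0.061), and called 6 members in labeled over total RNA without 4sU. These follow from the shift of the median gene between the scales.

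Over all genes, TMM called 283 for 4sU in labeled RNA, 460 in total and 3411 in unlabeled RNA. For 60 over 20 min it called 253 in labeled, 440 in total, 469 in unlabeled RNA and 61 in total RNA without 4sU, and 7 for time, with minus without 4sU. S. pombe totals called 5980 with and 4789 without 4sU for labeled over total RNA. DESeq2 called 956 relative to the typical gene, 20 for time in total RNA without 4sU, 74 for time, labeled minus total (1 member), and 1 for time, with minus without 4sU. Fits of only the 4 libraries of a contrast called 162 (total), 63 (unlabeled) and 93 (total without 4sU). No filter called 15 for total RNA without 4sU, 7 for labeled minus total, and 2 members for 4sU in unlabeled RNA, and filterByExpr called 3 for total RNA without 4sU. The cause was not tested.

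Leaving out a library in turn, members called ran from 2 to 7 for 4sU in labeled RNA, 0 to 5 relative to the typical gene, 1 to 5 for labeled over total RNA without 4sU and 0 to 3 for 4sU in unlabeled RNA. Genes called ran from 48 to 1898 relative to the typical gene, 733 to 3551 for labeled over total RNA without 4sU and 100 to 307 for 4sU in total RNA. For time they ran from 35 to 60 (labeled), 33 to 65 (total), 100 to 3225 (unlabeled), 0 to 3 (total without 4sU), 1 to 5 (labeled minus total) and 2 to 21 (with minus without 4sU). For time in labeled RNA the log2 value ran from -0.36 to 0.44 for SCR1, -0.23 to 0.10 for RPR1 and -0.13 to 0.064 for snR19, and for labeled minus total from -0.11 to 1.25 for SCR1 and -0.50 to 0.71 for snR14.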

Other observations

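The U3 RNAs, box C/D snoRNAs that guide early cuts of the ribosomal RNA precursor, stood near the abundant members. snR17a had 1349 to 3987 CPM (median 1835) in labeled RNA with 4sU, against 19736 to 33087 CPM (median 24113) in total RNA. Its log2 difference of labeled over total RNA with 4sU (TMM scaling) was -5.01 (SE 0.32), with 0.0494% of all tested genes at or below it. snR17b was at -3.69 (SE 0.31). Without 4sU the same difference was -1.11 for snR17a and -0.55 for snR17b, neither past the threshold (edgeR).

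Other RNAs of RNA polymerase III were read at low counts. snR52, a snoRNA, had 1 to 350 counts per library and was at -1.40 for labeled over total RNA with 4sU (SE 0.31, edgeR adjusted p = 0.00155), close to the -1.43 of snR14. In unlabeled RNA it was at -1.26 with against without 4sU (SE 0.56, edgeR adjusted p = 0.0285, S. pombe scale), and snR14 was at -1.28. RNA170 had 1 to 58 counts and was at -0.66 for labeled over total RNA with 4sU (edgeR adjusted p = 0.307).

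The U5 RNA was read at few counts. snR7-L had 41 counts in all, with 0 to 13 in a library, and snR7-S had 0 in each of the 24 libraries. Counting error alone allows up to 3 counts where 0 were found. Whether reads that match both U5 names were left uncounted was not tested. In labeled RNA snR7-L had 2 and 3 counts at 60 min and 13 and 2 counts at 20 min with 4sU, against 0 and 0 at 60 min and 1 and 0 at 20 min without, and was called higher (S. pombe scale, edgeR adjusted p = 0.00115). In unlabeled RNA it had 0 in each library with 4sU, against 3 and 1 counts at 60 min and 0 and 0 at 20 min without, and was called lower (edgeR adjusted p = 0.0465). No fold change is given, since all but 1 of these counts are at or under 3. ZOD1 had 4 counts in all. Counts under the U5 and U6 names were thus near 0 here, and no level of either RNA is read from them. U1, U2 and U4 had 1655, 13744 and 46 counts in their lowest library.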
